A study of Mus musculus with 31 samples.

Results

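The phagocyte NADPH oxidase was followed through 5 of its genes, Cybb, Cyba, Ncf1, Ncf4 and Rac2, which were chosen by name and are 5 of the 22609 gene symbols counted in masseter muscle (MM). Whole left MM of male C57BL/6J mice, 2 to 4 months old, had been injected with 10 µl of complete Freund's adjuvant (CFA) mixed with PBS, of collagenase type 2 (Col), a crude enzyme preparation that digests collagen, or of PBS as vehicle. The CFA experiment has 3 vehicle-treated mice, 3 mice at 1d and 3 at 5d. In the Col experiment 3 mice received vehicle. A dose of 0.2U was given to 4 mice labelled 1C and 4 labelled RPC, whose collection day the labels do not give. A dose of 10U was given to 4 mice collected at 2d, 3 at 6d and 4 at 12d. The days are those of the labels, and the study's text gives other days for the groups labelled 2 and 12 days. The sources used here do not say on which day vehicle-treated mice were collected. No mouse carried a transgene, and each library was made from poly(A) RNA of 1 mouse.

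The oxidase is an enzyme of neutrophils, monocytes and macrophages that passes electrons from NADPH across a membrane to oxygen and so makes superoxide. Cybb (gp91phox, also called NOX2) is its catalytic subunit and sits in the membrane with Cyba (p22phox), which also pairs with other NOX enzymes outside phagocytes. Ncf1 (p47phox) and Ncf4 (p40phox) wait in the cytosol and move to the membrane when the cell is stimulated, and Rac2, a small GTPase of blood cells, joins them there. Loss of Cybb, Cyba, Ncf1 or Ncf4 causes chronic granulomatous disease, in which phagocytes take up microbes but kill them poorly.

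On build mm9, with gene models of GENCODE vM1, Cybb lies on chromosome X from 9012378 to 9064897, Cyba on chromosome 8 from 124948672 to 124956840 and Ncf1 on chromosome 5 from 134695923 to 134705495, all on the minus strand. Ncf4 lies on chromosome 15 from 78075231 to 78093010 on the plus strand, and Rac2 on the same chromosome from 78389599 to 78403213 on the minus strand. Reads were counted over exons. Of the 3616 exon bases of Ncf1, 361 also belong to exons of Gtf2ird2 on the opposite strand, and whether the counting used strand is not given in the sources used here. The share of reads marked ambiguous differed between groups, as given in the methods, and its part in the counts of Ncf1 was not tested. Gtf2ird2 stood at 6.88 to 17.1 CPM (counts per 1e+06 reads on genes) over the 31 libraries with its lowest group median, 7.01 CPM, at 6d post-Col. Cyba overlaps a long gene model, Gm20388, with 0 shared exon bases. Of windows of 50 bases, the read length, 0.402% in Rac2 and 0% in the other members occur in transcripts of another gene.

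Promoter windows are shown for the members that RefSeq sequence was at hand for, because the members moved together from mouse to mouse. They hold the 250 bases before the RefSeq start of Cybb, Cyba and Ncf1, taken from RefSeq on GRCm38.p6, each of which matched build mm9 exactly once. For Cybb this start is that of a coding transcript from 9012378 to 9046450. Another coding model of Cybb begins farther upstream, at 9064897, and its promoter is not shown. Capitals mark 3 motifs that were searched on both strands, GAGGAA (1 form of the site bound by PU.1, a myeloid transcription factor), GGGCGG (the GC box bound by Sp1) and CCAAT (the CCAAT box). GAGGAA was in 23.1%, GGGCGG in 32.4% and CCAAT in 34.1% of 27025 windows of the same length.
Cybb, mm9 chrX:9046451-9046700, minus strand: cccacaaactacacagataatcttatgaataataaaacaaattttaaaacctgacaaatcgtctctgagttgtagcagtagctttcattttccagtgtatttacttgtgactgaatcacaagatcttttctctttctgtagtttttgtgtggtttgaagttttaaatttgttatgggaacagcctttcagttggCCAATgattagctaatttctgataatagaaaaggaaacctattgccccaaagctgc
Cyba, mm9 chr8:124956841-124957090, minus strand: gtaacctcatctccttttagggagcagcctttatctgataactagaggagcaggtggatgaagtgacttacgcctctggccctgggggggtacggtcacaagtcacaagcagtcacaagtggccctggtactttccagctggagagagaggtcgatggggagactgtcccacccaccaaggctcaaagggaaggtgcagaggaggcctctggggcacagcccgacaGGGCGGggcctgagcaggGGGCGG
Ncf1, mm9 chr5:134705496-134705745, minus strand: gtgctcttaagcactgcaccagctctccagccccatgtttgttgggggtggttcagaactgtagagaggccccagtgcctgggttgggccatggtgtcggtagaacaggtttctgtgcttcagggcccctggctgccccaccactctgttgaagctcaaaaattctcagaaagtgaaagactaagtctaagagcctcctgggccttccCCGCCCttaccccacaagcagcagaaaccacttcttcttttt
The Cybb window was 34.0% G and C, against 60.0% for Cyba and 54.4% for Ncf1. Cybb had 1 CCAAT beginning 56 bases before the start, Cyba had 2 GC boxes beginning 24 and 6 bases before it, and Ncf1 had 1 GC box on the opposite strand, 42 bases before it. The letters GAGGAA were in none of the 3 windows. Other forms of the PU.1 site were not searched, so the windows may hold them.

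The libraries held 14843778 to 29076671 reads on genes. All 31 libraries held skeletal muscle transcripts, with 27172 to 167362 CPM summed over 6 muscle genes, and many held transcripts of neighbouring tissues. The muscle genes stood at 89942 to 131114 CPM in Col vehicle, 27172 to 53091 CPM at 2d and 27622 to 52342 CPM at 6d post-Col. At 12d they stood at 42508 to 107669 CPM. CPM is a share of each library, and the part of lower muscle RNA in the members' values was not tested. Summed over 8 salivary gland genes, the libraries ranged from 11.1 to 275509 CPM, and all 3 mice at 5d post-CFA were at 128499 CPM or more. Summed over 4 granule genes of bone marrow progenitors (Mpo, Elane, Prtn3 and Ctsg), they ranged from 0.141 to 162 CPM. Vehicle-treated mouse 3 of the CFA experiment stood at 94.9 CPM of these genes, with 0.327 and 0.141 CPM in the other mice of its group. Vehicle-treated mouse 3 of the Col experiment stood at 162 CPM, with 25.3 and 0.718 CPM in the others, and the highest value at 6d post-Col was 1.19 CPM. The oxidase is a phagocyte enzyme, so these values stand beside each result that rests on the vehicle groups, and their part in those results was not tested.

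Every member was counted in every library, from 55 to 2745 reads for Cybb, 176 to 1892 for Cyba, 38 to 1661 for Ncf1, 8 to 297 for Ncf4 and 37 to 918 for Rac2. Levels are given as CPM with library sizes scaled by edgeR's TMM method over all 31 libraries. Over single mice, Cyba spanned 6.33-fold from lowest to highest, against 39.9-fold for Cybb, 32.2-fold for Ncf1, 40.3-fold for Ncf4 and 23.1-fold for Rac2. Per kilobase of exon, Cyba had the highest level of the 5 in 31 of 31 libraries, with a median of 26.8 RPKM against 1.64 for Ncf4, which was lowest in 26 of 31. These orders rest on the exon length used. With the longest coding transcript in place of all exons, Cyba was highest in 31 and Ncf4 lowest in 25 libraries.

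**Figure D1:**
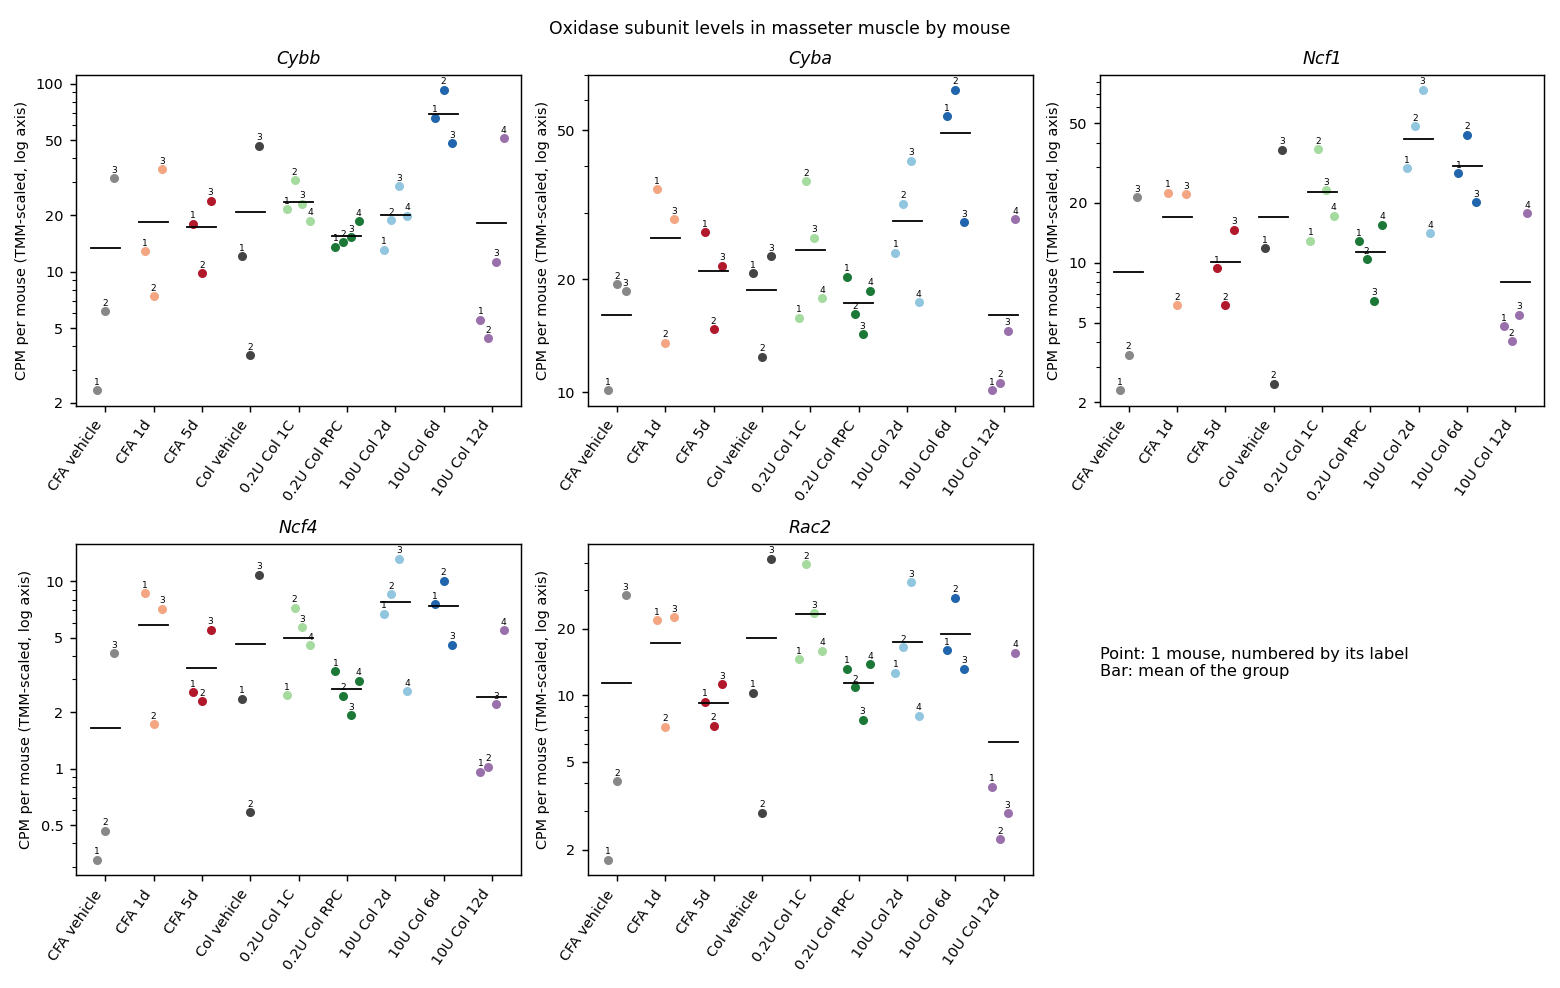
Level of each oxidase subunit in CPM (log axis) by group, 1 point per mouse with the number of its label and a bar at the group mean. Cybb at 6d post-Col, from 48.2 to 93.0 CPM, lies above the other groups except mouse 4 at 12d, and vehicle-treated mouse 3 lies far above the other vehicle-treated mice for Cybb, Ncf1, Ncf4 and Rac2 in both experiments.

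Cybb, the catalytic subunit, stood at 2.33, 6.14 and 31.4 CPM in the vehicle group of the CFA experiment and at 12.1, 3.59 and 46.8 CPM in that of the Col experiment, in mice 1, 2 and 3. At 6d post-Col it stood at 66.0, 93.0 and 48.2 CPM. These 3 values exceeded those of every other mouse in the series except mouse 4 at 12d post-Col, with 51.1 CPM. In the order of group means, 6d post-Col was first with 69.1 ± 22.5 CPM (SD, n = 3) and 1C second with 23.5 ± 5.09 CPM (n = 4), and the values of these neighbours did not overlap. The other groups lay between 13.3 and 20.8 CPM, and every pair of neighbours among them overlapped. In bulk tissue, a change in the number of phagocytes and a change in RNA per phagocyte cannot be told apart.

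Cyba, the membrane partner, differed less between vehicle-treated mice, by 1.92-fold from lowest to highest in the CFA and 1.85-fold in the Col experiment, against 13.5-fold and 13.0-fold for Cybb. At 6d post-Col its 3 mice differed by 2.25-fold, and those of Cybb by 1.93-fold. Its vehicle values were 10.1, 19.4 and 18.6 CPM in the CFA experiment and 20.8, 12.5 and 23.1 CPM in the Col experiment. It was highest at 6d post-Col, with 54.4, 64.1 and 28.4 CPM, followed by 2d post-Col with 23.6, 31.8, 41.4 and 17.4 CPM. For Cyba as for the 3 members described next, the values of every pair of neighbouring groups overlapped.

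Ncf1, the organizer subunit, had its highest group mean at 2d post-Col, with 29.8, 48.4, 73.7 and 14.1 CPM in the 4 mice, and came second at 6d with 28.0, 43.7 and 20.04 CPM. Its vehicle values in the Col experiment were 11.8, 2.48 and 36.9 CPM. Ncf4 followed the same order at a lower level, with a mean of 7.76 ± 4.39 CPM (SD, n = 4) at 2d and 7.41 ± 2.74 CPM (n = 3) at 6d. Rac2 had its highest mean in the 0.2U group 1C, 23.4 ± 11.4 CPM (n = 4), and its lowest at 12d post-Col, 6.16 ± 6.34 CPM (n = 4). Rac2 in vehicle-treated mouse 3 of the Col experiment, 41.6 CPM, was the highest value of the series.

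The first question for the 10U dose was how the oxidase stood at 6d post-Col against vehicle. Cyba was called higher, by 1.37 on the log2 scale (SE 0.35, adjusted p = 0.0268, edgeR's quasi-likelihood test with Benjamini-Hochberg adjustment over 14281 genes). For Cyba, all 3 mice at 6d lay above all 3 vehicle-treated mice. The summed muscle genes were lower at 6d than in vehicle without overlap, and their part in this rise was not tested. Cybb also lay above every vehicle-treated mouse, with a log2 fold change of 1.70 (SE 0.78), but did not pass (adjusted p = 0.135). The log2 fold changes of Ncf1, Ncf4 and Rac2 were 0.81, 0.65 and 0.02, with SEs of 0.78, 0.85 and 0.80, and none passed. So 1 of 5 members was called higher, where 14.0% of all tested genes were called higher, and 2 of 5 lay above without overlap, where 25.1% of all tested genes did.

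These values turned on single mice. Without vehicle-treated mouse 3, which held 162 CPM of the marrow progenitor genes, the log2 fold change was 3.12 for Cybb (SE 0.55, adjusted p = 0.00900), 1.55 for Cyba (adjusted p = 0.0240), 2.08 for Ncf1 (adjusted p = 0.0438), 2.29 for Ncf4 (adjusted p = 0.0291) and 1.51 for Rac2 (adjusted p = 0.0725), and 21.5% of all genes were called higher. In the other direction, the call of Cyba was lost without vehicle-treated mouse 1 or 2, with adjusted p of 0.0651 and 0.0520, and without mouse 1 or 2 at 6d, with 0.0884 and 0.105.

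**Figure D2:**
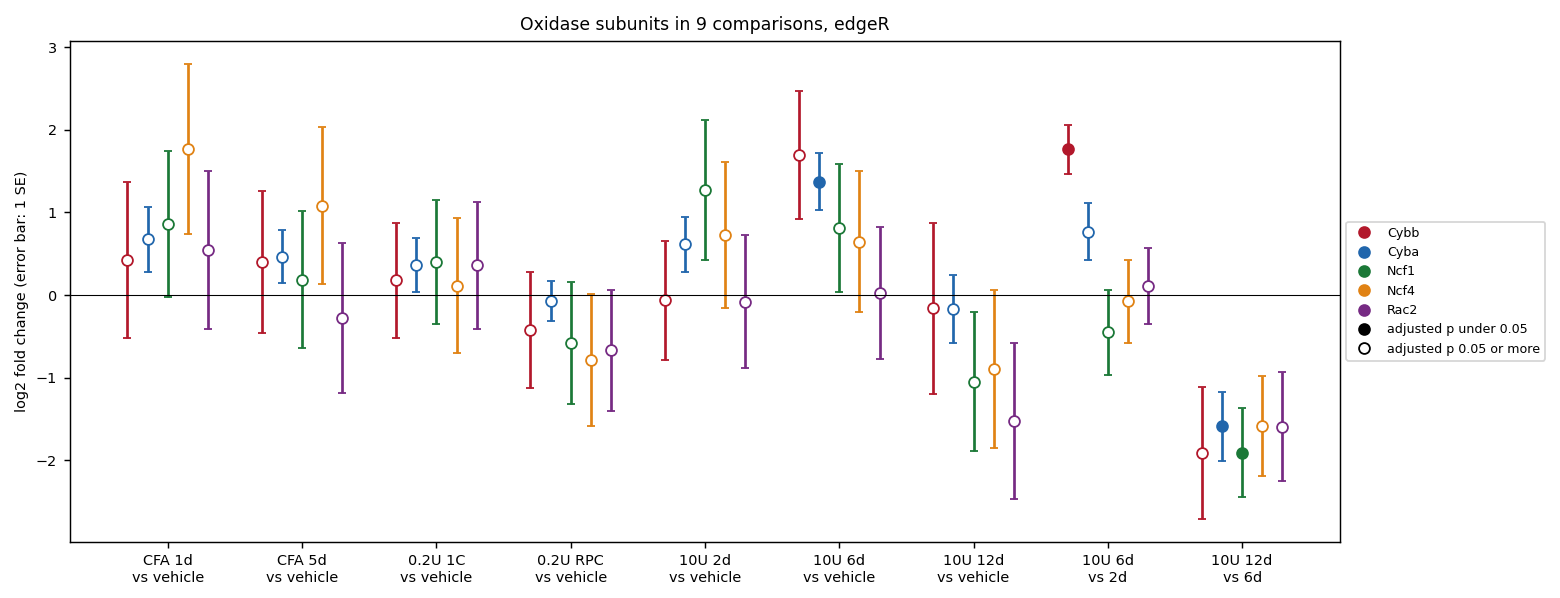
Log2 fold change of each subunit, with 1 SE as the error bar, for each group against its own vehicle and for the 10U groups against each other; filled points passed an adjusted p of 0.05 in edgeR. The 4 filled points are Cyba at 6d post-Col against vehicle, Cybb at 6d against 2d, and Cyba and Ncf1 at 12d against 6d.

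At 2d post-Col against vehicle, no member passed in edgeR, where 2.22% of genes were called, or in DESeq2, where 23.1% were. The log2 fold changes were -0.06 for Cybb (SE 0.72), 0.61 for Cyba (SE 0.34), 1.27 for Ncf1 (SE 0.85), 0.73 for Ncf4 (SE 0.89) and -0.08 for Rac2 (SE 0.81), with a smallest adjusted p of 0.233, for Cyba. Cyba in 3 of 4 mice and Ncf1 in 2 of 4 exceeded every vehicle-treated mouse, whereas no mouse did so for Cybb or Rac2. Without vehicle-treated mouse 3 the log2 fold changes were 1.37 for Cybb, 0.77 for Cyba, 2.52 for Ncf1, 2.36 for Ncf4 and 1.39 for Rac2, and still none passed, where 4.27% of genes did, with a smallest adjusted p of 0.0924, for Ncf1. The lowest values with 1 mouse left out were -0.59 for Cybb, 0.35 for Cyba, 0.73 for Ncf1, 0.19 for Ncf4 and -0.61 for Rac2.

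From 2d to 6d post-Col Cybb rose, and the other members did not pass the test. Cybb was 1.76 higher on the log2 scale at 6d (SE 0.30, adjusted p = 0.0164 in edgeR over 14513 genes), and the 4 mice at 2d, from 13.1 to 28.5 CPM, lay below the 3 mice at 6d. Cyba was at 0.76 (SE 0.35, adjusted p = 0.206), Ncf1 at -0.45 (SE 0.51), Ncf4 at -0.08 (SE 0.50) and Rac2 at 0.11 (SE 0.46). The count of 1 of 5 called higher stands beside 4.68% of all genes, and that of 1 of 5 without overlap beside 12.9%. The call was lost without mouse 1 at 6d (adjusted p = 0.0639), mouse 2 at 6d (0.0797) or mouse 2 at 2d (0.0615), with log2 fold changes of 1.82, 1.52 and 1.73. It was also lost in 1 fit of all 31 libraries, at 1.78 (adjusted p = 0.133). The macrophage and monocyte markers moved in the same interval, with 854.8 to 1849 CPM summed over 15 genes at 2d and 1871 to 3433 CPM at 6d, and so did 11 neutrophil markers, from 142 to 488 CPM at 2d and 26.2 to 36.0 CPM at 6d. The marrow progenitor genes stood at 1.73 to 38.5 CPM at 2d and 0.418 to 1.19 CPM at 6d, and the salivary gland genes at 25.3 to 109870 CPM at 2d and 11.1 to 33.7 CPM at 6d. The part of these markers in the change of Cybb was not tested.

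The balance between subunits in each library can be read without a scaling factor. As a ratio of read counts, Cybb to Ncf1 was 2.13 to 2.41 in the 3 mice at 6d. In the 4 mice at 2d the lowest ratio was 0.387, the median 0.413 and the highest 1.41, in mouse 4. On the log2 scale and per exon length, Cybb to Ncf1 stood at -1.54 ± 0.91 (SD, n = 4) at 2d and 0.51 ± 0.10 (n = 3) at 6d, and Cybb to Rac2 at -0.60 ± 0.66 and 0.95 ± 0.15. In Col vehicle these 2 ratios stood at -0.38 ± 0.25 and -0.71 ± 0.06 (n = 3). Ncf1 to Ncf4, both cytosolic, was at 1.55 ± 0.17 at 2d and 1.20 ± 0.14 at 6d, with ranges of 1.30 to 1.66 and 1.05 to 1.28. The ratios of Cybb to each of the 4 other members were higher in every mouse at 6d than in any mouse at 2d. Pairs without Cybb separated too, with Cyba to Ncf1 and Cyba to Rac2 higher and Ncf1 to Ncf4 lower in every mouse at 6d. These pairs were looked at after their values had been seen and were not tested. Cybb by itself also lay higher in every mouse at 6d than in any mouse at 2d. So did its log2 ratio to the leukocyte gene Ptprc, at -0.93 to -0.04 at 2d and 0.51 to 0.59 at 6d. For how many of all genes the ratio to Cybb would separate in this way was not counted.

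**Figure D3:**
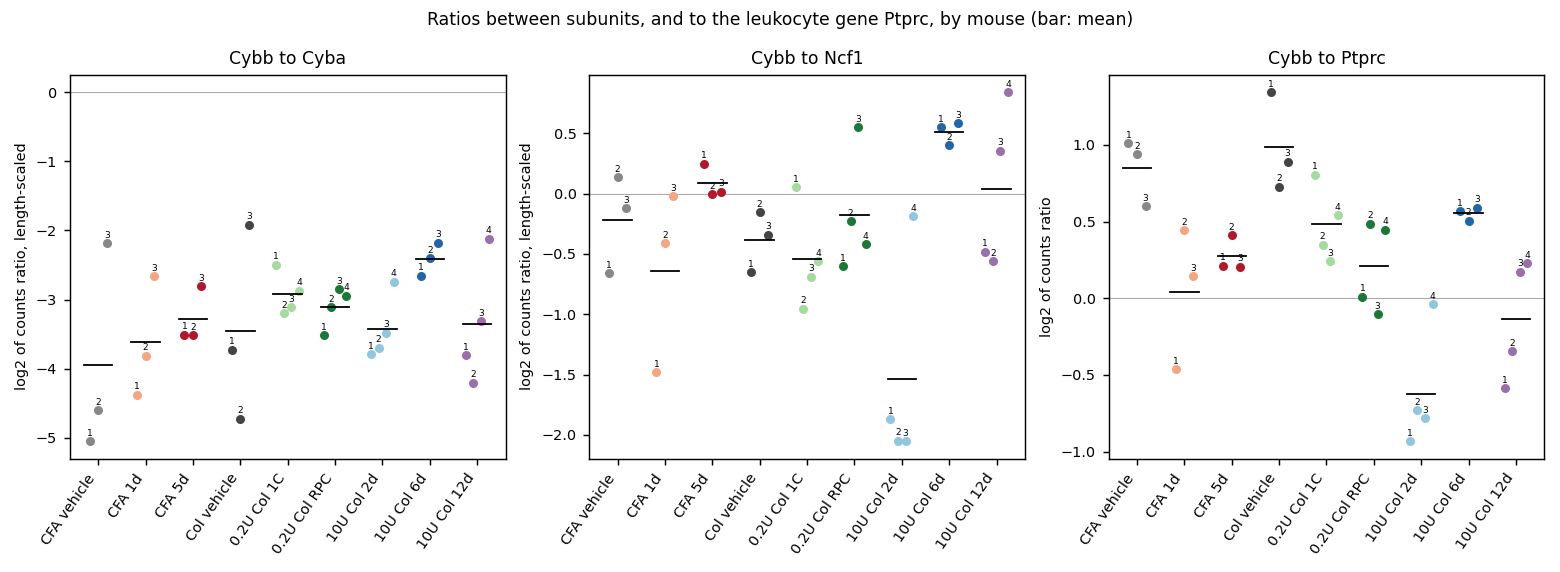
Log2 ratio of Cybb to Cyba and to Ncf1 (read counts per exon length) and to the leukocyte gene Ptprc (read counts), 1 point per mouse with its number and a bar at the group mean. Cybb to Ncf1 lies above 0.40 in all 3 mice at 6d post-Col and below 0 in all 4 mice at 2d. It also lies below 0 in all 3 Col vehicle mice and all 3 mice at 1d post-CFA. Cybb to Ptprc is higher in the vehicle groups than in the groups at 2d and 12d.

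At 12d post-Col the members stood lower than at 6d in 3 of 4 mice. Cybb was at 5.54, 4.41 and 11.3 CPM in mice 1 to 3 and at 51.1 CPM in mouse 4, and Ncf1 at 4.82, 4.05, 5.48 and 17.7 CPM. Cyba fell by 1.59 on the log2 scale from 6d to 12d (SE 0.42, adjusted p = 0.0317) and Ncf1 fell by 1.91 (SE 0.54, adjusted p = 0.0378, edgeR over 14344 genes). Ncf1 was lower in all 4 mice at 12d than in any mouse at 6d. Cybb was at -1.91 (SE 0.80, adjusted p = 0.106), Ncf4 at -1.58 (SE 0.60, adjusted p = 0.0836) and Rac2 at -1.59 (SE 0.66, adjusted p = 0.101). Thus 2 of 5 members were called lower beside 13.0% of all genes, and 1 of 5 lay below without overlap beside 19.3%. DESeq2 called 5 of 5 lower, with adjusted p from 0.00238 for Cyba to 0.0447 for Rac2, where it called 17.9% of genes lower. In 1 fit of all 31 libraries Cyba passed (adjusted p = 0.00811) and Ncf1 did not, at -1.93 (adjusted p = 0.0640).

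Mouse 4 at 12d post-Col set the spread of that group. It held 21.4 CPM of the marrow progenitor genes, 256.6 CPM of the neutrophil markers and 1413 CPM of the macrophage and monocyte markers, each the highest value of its group. Its muscle genes, at 42508 CPM, were the lowest of its group, against 83097 to 107669 CPM in the others. Without it all 5 members were called lower than at 6d, where 29.1% of genes were, with log2 fold changes of -3.30 for Cybb (SE 0.37, adjusted p = 0.000527), -2.07 for Cyba, -2.68 for Ncf1, -2.42 for Ncf4 and -2.66 for Rac2. Both calls were lost without any 1 of mice 1, 2 and 3 at 12d or mice 1 and 2 at 6d, with adjusted p from 0.0789 to 0.129 for Cyba and from 0.0855 to 0.151 for Ncf1. Without mouse 3 at 6d the adjusted p was 0.0416 for Cyba and 0.0605 for Ncf1. Against vehicle, no member passed at 12d in edgeR, where 1.23% of genes were called, or in DESeq2, where 6.36% were, and the log2 fold changes ran from -1.52 for Rac2 (SE 0.94) to -0.16 for Cybb (SE 1.04).

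In the CFA experiment no member passed at 1d or at 5d, in edgeR or in DESeq2. At 1d Cybb stood at 12.9, 7.40 and 35.0 CPM, Ncf1 at 22.4, 6.12 and 22.1 CPM and Ncf4 at 8.67, 1.73 and 7.15 CPM, and mouse 2 was lowest for each member. The log2 fold changes against vehicle were 0.42 for Cybb (SE 0.95), 0.67 for Cyba (SE 0.40), 0.86 for Ncf1 (SE 0.88), 1.77 for Ncf4 (SE 1.03) and 0.54 for Rac2 (SE 0.96), with a smallest adjusted p of 0.924. Of all 13944 genes, 0% were called in edgeR, 588 had an unadjusted p under 0.05, none of them a member, and DESeq2 called 0.402%. Without vehicle-treated mouse 3 the log2 fold changes were 2.17 for Cybb, 2.59 for Ncf1, 3.91 for Ncf4 and 2.60 for Rac2, and none passed (adjusted p = 0.349 each, edgeR). That mouse was the highest of its group for Cybb, Ncf1, Ncf4 and Rac2. The lowest values with 1 mouse left out were -0.45 for Cybb, 0.43 for Ncf1, 1.31 for Ncf4 and 0.07 for Rac2.

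At 5d post-CFA the mice were closer to each other, with Cybb at 17.95, 9.84 and 23.8 CPM and Ncf1 at 9.40, 6.14 and 14.6 CPM. Each of these lay above vehicle-treated mice 1 and 2 and below vehicle-treated mouse 3. With all mice, the log2 fold changes were 0.40 for Cybb (SE 0.86), 0.46 for Cyba (SE 0.32), 0.19 for Ncf1 (SE 0.83), 1.08 for Ncf4 (SE 0.95) and -0.27 for Rac2 (SE 0.91), and 1.11% of genes were called, or 6.41% in DESeq2. Without vehicle-treated mouse 3, 4 of 5 members were called higher, where 11.8% of genes were. The log2 fold change was then 2.14 for Cybb (SE 0.46, adjusted p = 0.0134), 1.92 for Ncf1 (SE 0.40, adjusted p = 0.0107), 3.21 for Ncf4 (SE 0.54, adjusted p = 0.00395) and 1.78 for Rac2 (SE 0.37, adjusted p = 0.0118). For Cyba it was 0.63 (SE 0.32, adjusted p = 0.220). Leaving out each mouse in turn, the log2 fold change ran from -0.11 to 2.14 for Cybb and from -0.28 to 1.92 for Ncf1. It ran from 0.56 to 3.21 for Ncf4 and from -0.79 to 1.78 for Rac2. Vehicle-treated mouse 3 was the highest of its group for these 4 members, so leaving it out raised their log2 fold changes. That mouse held 1032 CPM of the neutrophil markers against 5.85 and 17.5 CPM in the other vehicle-treated mice and 10.1 to 24.7 CPM at 5d. Other markers also differed between vehicle-treated mice 1 and 2 and the mice at 5d. The macrophage and monocyte genes stood at 333 and 552 CPM against 684 to 941 CPM, and the salivary gland genes at 104 and 112 CPM against 128499 to 160394 CPM. The part of these markers was not tested.

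**Figure D4:**
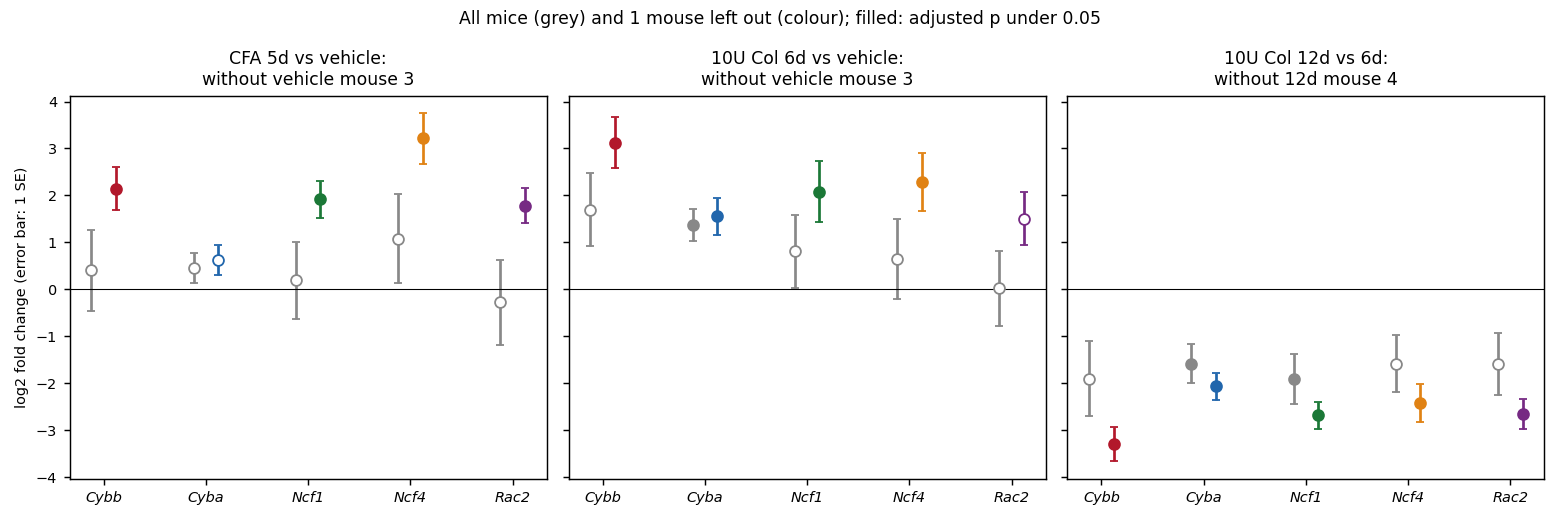
Log2 fold change of each subunit with 1 SE as the error bar, with all mice in grey and with the named mouse left out in colour; filled points passed an adjusted p of 0.05. Leaving out vehicle-treated mouse 3 moved Cybb at 5d post-CFA from 0.40 to 2.14 and at 6d post-Col from 1.70 to 3.12, and leaving out mouse 4 at 12d moved Cybb against 6d from -1.91 to -3.30. Each mouse left out here had the highest Cybb of its group, so leaving it out enlarges the change of Cybb.

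For 0.2U Col no member passed in 1C or RPC, in edgeR or DESeq2. Cybb stood at 21.5, 30.6, 23.0 and 18.7 CPM in 1C and at 13.6, 14.3, 15.2 and 18.6 CPM in RPC. The log2 fold changes against vehicle lay between 0.12 and 0.41 in 1C and between -0.78 and -0.07 in RPC, with SEs of 0.24 to 0.82. edgeR called 0% of genes in both groups, while 1819 genes in 1C and 1923 in RPC had an unadjusted p under 0.05, and DESeq2 called 3.58% and 3.10%. The marrow progenitor genes stood at 23.2 to 75.1 CPM in 1C and at 0.331 to 34.0 CPM in RPC, against 25.3, 0.718 and 162 CPM in vehicle, so the groups overlapped. Of these 4 genes 0 passed in either group, with median log2 fold changes of -0.59 in 1C and -1.47 in RPC.

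The vehicle groups of the 2 experiments were compared with each other, and no member passed, with log2 fold changes (CFA vehicle minus Col vehicle) from -1.48 for Ncf4 (SE 1.25) to -0.25 for Cyba (SE 0.33). 0.0426% of genes were called between them. Whether the change under CFA differed from that under 10U Col was tested as an interaction. Between 1d post-CFA and 2d post-Col the difference of the log2 fold changes ran from -0.39 for Ncf1 (SE 1.32) to 1.06 for Ncf4 (SE 1.45), where 0.0946% of genes were called. Between 5d post-CFA and 6d post-Col it ran from -1.31 for Cybb (SE 1.32, adjusted p = 0.541) to 0.42 for Ncf4 (SE 1.43), where 11.3% of genes were called. No member passed either test. The days of the paired groups differ.

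The log2 ratio of Cybb to Cyba compared the catalytic subunit with a partner that other cells also use. It stood at -3.46 ± 1.42 (SD, n = 3) in vehicle-treated mice of the Col experiment and at -2.41 ± 0.24 (n = 3) at 6d post-Col, a difference of 1.04 (exact permutation p = 0.400, adjusted p = 0.914). In the 7 comparisons with vehicle, adjusted together, the differences ran from 0.03 at 2d post-Col to 1.04 at 6d, and each exact two-sided permutation p was 0.400 or more. With 3 mice against 3 the smallest p this test can give is 0.100, and with 4 against 3 it is 0.0571, so no group could pass.

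The log2 ratio of Cybb to Ptprc, the gene of the CD45 protein on leukocytes, set Cybb against a gene of all white blood cells. The ratio was 0.99 ± 0.32 (SD, n = 3) in the Col vehicle group, 0.55 ± 0.04 (n = 3) at 6d, -0.13 ± 0.40 (n = 4) at 12d and -0.62 ± 0.40 (n = 4) at 2d post-Col. In the CFA experiment it was 0.85 ± 0.22 in vehicle, 0.04 ± 0.46 at 1d and 0.28 ± 0.12 at 5d (n = 3 each). In the 7 comparisons with vehicle the exact two-sided permutation p was 0.0571 to 0.114, and none passed (adjusted p = 0.114 in each). The smallest p this test can give, 0.100 or 0.0571 by group size, is over the threshold, so none could pass. Every group except 1C reached that smallest p. With both vehicle groups pooled, 6 mice in all, the adjusted p of the exact permutation test was 0.0222 to 0.0381. These comparisons share their vehicle-treated mice and are not independent of each other. The other members also stood lower against Ptprc at 6d post-Col than in vehicle, which was not tested. Cyba to Ptprc was 1.51 ± 1.43 in vehicle and 0.03 ± 0.23 at 6d, Ncf1 to Ptprc 0.69 ± 0.57 and -0.64 ± 0.05, Ncf4 to Ptprc -1.34 ± 0.43 and -2.68 ± 0.12, and Rac2 to Ptprc 0.76 ± 0.34 and -1.33 ± 0.13 (log2 of read counts, SD, n = 3 each). In vehicle-treated mouse 3, whose Cybb level was far above those of mice 1 and 2, the log2 ratio of Cybb to Ptprc was 0.60 in the CFA and 0.89 in the Col experiment.

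High Cybb appeared beside different sets of marker genes. The 3 mice at 6d post-Col had 0.418 to 1.19 CPM of the marrow progenitor genes and 1871 to 3433 CPM of the macrophage and monocyte markers. Among these, Csf1r, the receptor that macrophages need to survive, was at 101.5 to 177.5 CPM. The granulocyte gene S100a8 was at 2.52 to 6.14 CPM in these mice. Vehicle-treated mouse 3 had 94.9 and 162 CPM of the marrow progenitor genes in the CFA and Col experiments. Its S100a8 was at 156 and 243 CPM, the highest of its group in both. Its macrophage and monocyte markers were also the highest of its group, at 553 CPM against 333 and 552 CPM in the CFA experiment. In the Col experiment they stood at 810 CPM against 622 and 356 CPM. Mouse 4 at 12d post-Col, with 51.1 CPM of Cybb, had 21.4 CPM of the marrow progenitor genes and 1413 CPM of the macrophage and monocyte markers. A fit of all 31 libraries with the mean log2 CPM of the 4 marrow progenitor genes as a covariate was chosen after seeing the data. In it 5 of 5 members were called higher at 6d post-Col than in vehicle, from 1.78 for Cyba (adjusted p = 0.00329) to 3.60 for Cybb (adjusted p = 0.000563), where 21.8% of genes were. It also called Ncf1 at 2d post-Col, by 1.97 (adjusted p = 0.0110), where 19.3% of genes were called higher, and no member in the CFA or 0.2U comparisons. Of 15526 genes it called 7 at 1d and 70 at 5d post-CFA, 171 in 1C and 0 in RPC. The marrow progenitor genes of the Col vehicle group stood at 25.3, 0.718 and 162 CPM, so only mouse 2 lay within the range at 6d. This fit therefore cannot fully separate group from covariate.

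**Figure D5:**
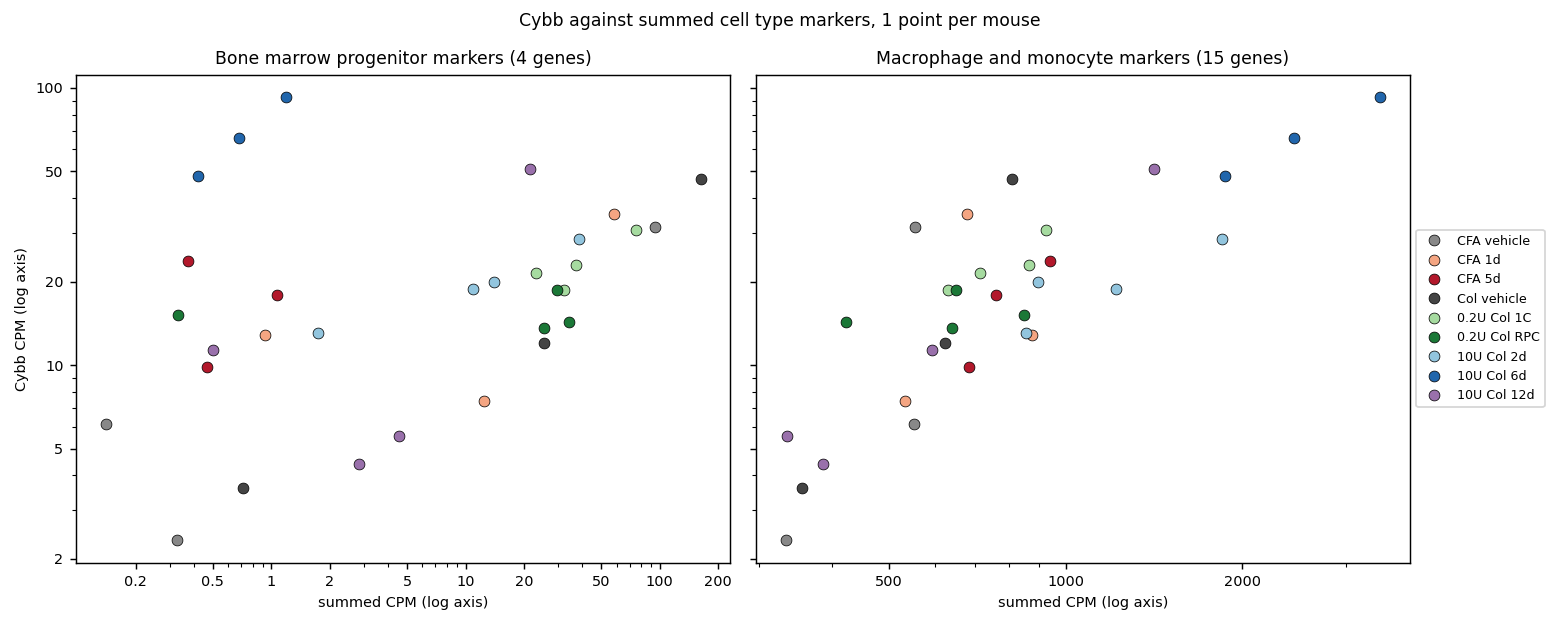
Cybb in CPM against the summed CPM of 4 bone marrow progenitor genes (left) and of 15 macrophage and monocyte genes (right), all axes log, 1 point per mouse coloured by group. The 3 mice at 6d post-Col, at 48.2 to 93.0 CPM of Cybb, hold at most 1.19 CPM of the progenitor genes and at least 1871 CPM of the macrophage and monocyte genes.

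Over the 31 mice, log2 CPM of the members rose and fell together, with Pearson's r from 0.75 between Cyba and Rac2 to 0.96 between Ncf1 and Ncf4. After the mean of each group was subtracted, r was 0.71 between Cybb and Cyba and 0.97 between Ncf1 and Ncf4. These are descriptions over libraries that share the markers of tissue makeup given above. The 8 genes of 15521 whose log2 CPM was most like the mean of the 5 standardised members were Sash3, Itgb2, Sla, Nfam1, Myo1f, Vav1, Fgr and Dock2, with r from 0.98 to 0.96 over 31 mice. Itgb2 is the beta chain of the leukocyte integrins, Fgr a kinase of the Src family, Vav1 an exchange factor and Dock2 an activator of Rac. At 6d post-Col against vehicle, Itgb2 was at 1.43 (SE 0.74, adjusted p = 0.175) and Vav1 at 1.57 (SE 0.66, adjusted p = 0.109) on the log2 scale, and none of the 8 passed. These genes were picked for their likeness to the members over the same mice, so their tests are not separate from those of the members.

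Other genes of the pathway were taken from lists and are described at 6d post-Col against vehicle, where 14.0% of all tested genes were called higher and 13.3% lower. Of 13 oxidase partners and homologs, 9 were tested and 1 rose, and their median log2 fold change was 0.27, where that of all genes was 0.0056. That gene was Nox4, a NOX enzyme of non-phagocytic cells that uses Cyba and needs no cytosolic subunit. It stood at 3.45 ± 1.43 CPM (SD, n = 3) in vehicle and 15.5 ± 2.27 CPM (n = 3) at 6d, 2.15 higher on the log2 scale (SE 0.35, adjusted p = 0.00774). Rap1a, a GTPase found with the oxidase, had a log2 fold change of 0.67 (adjusted p = 0.0694) and did not pass.

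Of 22 tested genes of upstream signalling and oxidase support, 5 rose and 0 fell at 6d, beside 14.0% and 13.3% of all genes, and the median of their log2 fold changes was 1.07. Fcgr1, the high-affinity Fc receptor of macrophages, went from 1.42 ± 0.52 to 21.6 ± 11.6 CPM (log2 fold change 3.90, SE 0.48, adjusted p = 0.00334). Clec7a, the receptor for fungal beta-glucan, rose by 3.77 (SE 0.57, adjusted p = 0.00629) and Tlr2, a receptor for bacterial lipoproteins, by 1.97 (SE 0.43, adjusted p = 0.0178). Fcgr1 was already higher at 2d, by 3.46 (SE 0.59, adjusted p = 0.0430), the single call of this list at that time. Of 6 other small GTPases, Rhog, which is close to Rac2, rose by 0.75 (SE 0.17, adjusted p = 0.0198), and Cdc42 and Rhoh were at 0.42 and 0.98 and did not pass.

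Other enzymes use or remove the products of the oxidase. Of 21 antioxidant enzymes and Nrf2 targets, 3 rose and 2 fell at 6d, near the 14.0% and 13.3% of all genes, and the median of their log2 fold changes was 0.11. Hmox1, which breaks down heme, was at 15.8 ± 4.26 CPM in vehicle (SD, n = 3), 336 ± 196 CPM at 2d (n = 4) and 107 ± 53.0 CPM at 6d (n = 3), up by 4.41 (SE 0.69, adjusted p = 0.0393) and 2.75 (SE 0.39, adjusted p = 0.00515). Prdx4 and Txn1, which reduce peroxides and disulfides, rose by 0.95 (SE 0.25, adjusted p = 0.0291) and 1.03 (SE 0.28, adjusted p = 0.0327) at 6d. Of 3 tested genes of peroxide use and nitric oxide, Nos2, the inducible nitric oxide synthase, fell by 0.90 (SE 0.26, adjusted p = 0.0376) and Mpo, which makes hypochlorous acid from peroxide, fell by 6.75 (SE 1.72, adjusted p = 0.0279). Mpo is also among the marrow progenitor genes, and its vehicle values were 13.9, 0.326 and 92.9 CPM. Arg1, the arginase of repair macrophages, stood at 196 ± 176 CPM at 2d and 11.0 ± 7.30 CPM at 6d (adjusted p = 0.0660).

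The marker lists placed beside the members moved in opposite directions at 6d post-Col. Of 15 macrophage and monocyte genes, 12 rose and 1 fell against vehicle, with a median log2 fold change of 2.61, and C1qb, a complement gene of macrophages, went from 34.9 ± 10.1 to 260 ± 87.4 CPM (adjusted p = 0.00292). Of 10 tested neutrophil genes 0 rose and 5 fell, where 13.3% of all genes fell, with a median of -4.35. Summed over 11 neutrophil markers, vehicle-treated mice 1, 2 and 3 stood at 449, 18.3 and 1665 CPM and the mice at 6d at 26.2 to 36.0 CPM, so vehicle-treated mouse 2 lay below every mouse at 6d. Mice 1 and 3 were those with 25.3 and 162 CPM of marrow progenitor genes. Of 4 pan-leukocyte genes, 2 rose. From 6d to 12d post-Col, 6 of 15 macrophage and monocyte genes fell, where 13.0% of all genes did, and 4 of 10 neutrophil genes rose, where 13.4% did. In the same interval 6 of 21 tested genes of upstream signalling fell, Tlr2 by 1.79 (SE 0.48, adjusted p = 0.0334), and Rhog fell by 1.13 (SE 0.15, adjusted p = 0.00846). In the CFA and 0.2U comparisons with vehicle, 0 genes of the pathway lists and of the macrophage, neutrophil and pan-leukocyte lists passed. Among all tested genes, edgeR called 0% at 1d post-CFA, in 1C and in RPC, and 1.11% at 5d post-CFA.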

How the data were processed

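Poly(A) RNA of left MM from 31 mice was sequenced as stranded libraries with single reads of 50 bases. The authors' deposited files hold raw counts of reads per gene symbol, 1 file per mouse, and the submitters' processing notes name bcl2fastq, TopHat2, HTSeq and build mm9. Versions, the annotation and the strand setting of the counting are not given in the sources used here. The lines of each file that name no gene, 41.7% to 58.9% of its total, were left out, which left 14843778 to 29076671 reads per library, with a median of 20834472. Among these lines, reads marked ambiguous came to 0.680% to 0.883% of the reads on genes in libraries of the higher Col dose. In all other libraries they came to 0.147% to 0.318%, with 0.166% to 0.236% in the Col vehicle group. Comparisons of that dose with vehicle therefore set libraries with different shares against each other. The cause of this difference and its part in the results were not tested. No 2 of the 31 libraries (465 pairs) were identical. Groups came from the sample titles.

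Each comparison was fitted in edgeR 4.0.16 (R 4.3.3; quasi-likelihood test, TMM scaling) on its own groups, over genes with at least 10 reads in at least 3 libraries, with Benjamini-Hochberg adjustment over all tested genes and a threshold of 0.05. SEs were the log2 fold change over the square root of F. The interactions used the 4 groups involved. Log2 CPM used a prior count of 2, and ratios of counts a pseudocount of 0.5 and exact permutation tests over mice. Alternatives were DESeq2 1.42.0, its size factors in edgeR, no filter, 1 fit of 31 libraries, pooled vehicles, the replicate block, the study's fold and RPKM criteria, and each mouse left out. The script was tested on simulated data.

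Members and lists were chosen with earlier results of these data known. Named were the 5 members, up to 3 genes per list with the smallest adjusted p at 6d post-Col against vehicle, and the 8 genes most like the members. Csf1r and S100a8 were named after their values were seen. Syk, Ly6g and Bpifa2 were not analysed here. The values of 1 listed gene are not reported here. Replicate numbers were checked for pairing by correlating deviations from group means. Every pair was over 0.1 for 1d post-CFA against vehicle (0.115 to 0.447) and for the vehicle groups (0.114 to 0.625), although the mice are different animals. Whether samples of a group came from separate litters or days is not given. The p-values treat each mouse as independent, which could not be checked. Of 22609 symbols, 21627 matched a GENCODE vM1 model by symbol, 45 by synonym and 937 had none.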

Additional observations from a re-analysis of the deposited data

Results flagged for a closer look

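Mouse 4 at 12d post-Col stood far above the other 3 mice of its group for 3 members. Cybb was at 51.1 CPM, against 4.41 to 11.3 CPM in the others. Ncf1 was at 17.7 CPM, against 4.05 to 5.48 CPM. Rac2 was at 15.6 CPM, against 2.23 to 3.86 CPM. In each case the gap to the nearest mouse took up more of the group's whole range than Dixon's critical value allows. In all, 28 sets of 4 values were examined, the 5 members and 2 ratios in each of the 4 groups of 4 mice. Chance singles out about 1 in 20 sets, but the 3 found here come from the same mouse and from members that rise and fall together, so they are not separate events. The same mouse had the highest summed macrophage, neutrophil and marrow progenitor markers of its group, whose part in these values was not tested.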

How the results depend on the processing

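Members passing the test stayed within the counts of the report under DESeq2's size factors in edgeR, no filter on low counts, pooled vehicles and the study's criteria. With marrow progenitor genes as a covariate, chosen after seeing the data, 1 member passed at 2d post-Col, 5 at 6d and 5 at 12d against 6d. With the replicate block 0 passed at 6d and 5 at 12d against 6d. With 1 fit of 31 libraries 0 passed at 6d against 2d and 1 at 12d against 6d, and with DESeq2 5 passed at 12d against 6d. The causes were not tested. Leaving out 1 mouse at a time, 0 to 4 members passed at 5d post-CFA, 0 to 4 at 6d post-Col, 0 to 1 at 6d against 2d and 0 to 5 at 12d against 6d. With pooled vehicles the difference in the Cybb to Ptprc log2 ratio passed in all 7 groups, at -0.88 (1d post-CFA), -0.64 (5d post-CFA), -0.44 (1C), -0.71 (RPC), -1.54 (2d post-Col), -0.37 (6d post-Col) and -1.05 (12d post-Col). With pooled vehicles, the log2 fold change changed sign for Ncf1 (-0.35) in 5d post-CFA, Cyba (0.038) in RPC, Cybb (0.23) and Rac2 (0.22) in 2d post-Col, Cybb (0.11) in 12d post-Col. With the replicate block, the log2 fold change changed sign for Rac2 (0.67) in 5d post-CFA, Cybb (0.18), Ncf4 (0.043) and Rac2 (0.0086) in RPC, Cybb (0.52) and Rac2 (0.74) in 2d post-Col, Rac2 (-0.069) in 6d against 2d, Cyba (-0.16) in the early interaction. With the marrow covariate, the log2 fold change changed sign for Rac2 (1.11) in 5d post-CFA, Cybb (0.47), Ncf1 (0.068) and Rac2 (0.13) in RPC, Cybb (0.67) and Rac2 (0.68) in 2d post-Col, Cybb (0.70) and Ncf4 (0.092) in 12d post-Col, Ncf1 (0.68) and Ncf4 (0.95) in 6d against 2d, Cybb (0.014) and Cyba (0.015) in vehicle against vehicle, Cybb (-0.15) and Cyba (-0.087) in the early interaction, Ncf4 (-0.11) in the late interaction. Leaving out 1 mouse at a time moved log2 values across 0 as follows. In 1d post-CFA the range was the Cybb to Cyba ratio -0.22 to 1.21 and Cybb -0.45 to 2.17. In 5d post-CFA the range was Cybb -0.11 to 2.14, Ncf1 -0.28 to 1.92 and Rac2 -0.79 to 1.78. In 1C the range was the Cybb to Cyba ratio -0.095 to 1.31, Cybb -0.32 to 1.62, Ncf1 -0.10 to 1.69, Ncf4 -0.40 to 1.77 and Rac2 -0.14 to 1.85. In RPC the range was the Cybb to Cyba ratio -0.28 to 1.12, Cybb -0.92 to 1.07, Cyba -0.29 to 0.15, Ncf1 -1.09 to 0.76, Ncf4 -1.30 to 0.93 and Rac2 -1.17 to 0.88. In 2d post-Col the range was the Cybb to Cyba ratio -0.61 to 0.80, Cybb -0.59 to 1.37 and Rac2 -0.61 to 1.39. In 6d post-Col the range was Rac2 -0.49 to 1.51. In 12d post-Col the range was the Cybb to Cyba ratio -0.54 to 0.87, Cybb -1.57 to 1.33, Cyba -0.66 to 0.048, Ncf1 -1.84 to 0.29, Ncf4 -1.73 to 0.81 and Rac2 -2.60 to 0.021. In 6d against 2d the range was Ncf4 -0.37 to 0.32 and Rac2 -0.24 to 0.61. In vehicle against vehicle the range was Cybb -2.39 to 0.80, Ncf1 -2.65 to 0.37, Ncf4 -3.61 to 0.19 and Rac2 -2.73 to 0.82. In the early interaction the range was Cybb -0.90 to 2.18, Cyba -0.18 to 0.38, Ncf1 -1.64 to 1.27, Ncf4 -0.57 to 3.12 and Rac2 -0.82 to 2.62. In the late interaction the range was Cybb -2.74 to 0.45, Ncf1 -1.92 to 1.11, Ncf4 -1.24 to 2.57 and Rac2 -1.80 to 1.76. The count of all genes called, with its range over the alternatives, was 0 in 1d post-CFA (0 to 56), 155 in 5d post-CFA (0 to 2162), 0 in 1C (0 to 519), 0 in RPC (0 to 443), 319 in 2d post-Col (12 to 5825), 3900 in 6d post-Col (809 to 6640), 174 in 12d post-Col (41 to 2067), 1267 in 6d against 2d (126 to 4105), 3785 in 12d against 6d (234 to 7687), 6 in vehicle against vehicle (0 to 65), 14 in the early interaction (4 to 162) and 1684 in the late interaction (563 to 2764). In the comparisons not named in the methods, at least 1 same-numbered pair correlated at less than 0.1, and the block moved the count of genes called from 319 to 4500 at 2d post-Col, from 3900 to 1473 at 6d and from 3785 to 7056 at 12d against 6d. Ncf4, with 8 reads in its lowest library, is the member most limited by depth.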
